A study of Mus musculus with 16 samples.

Results

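The Prame-like genes of mouse two-cell embryos were read from 23 probe sets of a one-colour oligonucleotide array, out of 45037 probe sets for transcripts. A member was any probe set whose platform gene symbol begins with Pramel or Pramef, also where it lists several such genes, so no measured value chose them. No symbol began with Pramef, and the 23 probe sets carried 18 Pramel symbols, while RefSeq lists 48 Pramel genes in the mouse. Of the 23, 15 were annotated to 1 gene and 8 to several, and 7 carry a suffix that marks probes shared between transcripts, so near-identical copies could not always be told apart. Another 4 probe sets of the wider family, for Prame, Oog3 and Oog4, were read beside them.

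Total RNA was measured on 16 arrays, 4 in each of 4 groups, which were BCB with α-amanitin, BCB untreated, BBB with α-amanitin and BBB untreated. BCB embryos had a C3H maternal pronucleus beside a B6 paternal pronucleus in B6 ooplasm, and BBB embryos had both pronuclei and the ooplasm from B6. The paternal pronucleus and the ooplasm were therefore B6 in all 4 groups. α-Amanitin (the labels write α-amantin) inhibits RNA polymerase II, so the amanitin groups ask which transcripts depend on transcription by the embryo. The labels give no dose, no duration, no number of embryos per array and no origin of the replicates, so each p-value measures only the spread between these samples, which may be technical.

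The deposited values were linear intensities, with a mean per array of 208 to 246 before any filter or log. Correlations between arrays of 1 group were 0.976 to 0.990, taken across probe sets, which are not independent replicates. Probe sets entered the test if at least 4 arrays held them at or above the 40th percentile of that array, an intensity of 10.8 to 14.1. Differences are given on the scale of log2(intensity + 16), which understates the change of dim probe sets, and a call is an adjusted p under 0.05 in limma with Benjamini-Hochberg adjustment over all 31953 probe sets tested. The array's added control transcripts were brighter with amanitin. Hybridization controls were higher by 0.80 (log2) in BCB and 0.52 in BBB embryos, and poly-A controls by 1.99 and 1.96. Markers of the labelled stage were present. Of 11 listed two-cell markers 5 could be tested, and these, Zfp352, Eif1a, Hspa1a, Hspa1b and Tdpoz1, summed to an intensity of 233 to 464 with amanitin and 6788 to 7897 untreated in BCB embryos, and to 160 to 408 with amanitin and 7136 to 8744 untreated in BBB embryos. Levels are compared between samples for 1 probe set and never between probe sets.

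PRAME-like proteins are built of leucine-rich repeats, and members of the PRAME family act as substrate receptors of ubiquitin ligases assembled on cullin 2. In mouse embryonic stem cells, Pramel7 directs the degradation of UHRF1, which maintains DNA methylation, and Pramel6 and Pramel7 have been placed in the LIF and STAT3 pathway that keeps these cells pluripotent. Other relatives, among them the oogenesins Oog1 to Oog4, are known as transcripts of the oocyte that are carried into the egg.

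The Prame-like probe sets split into one group that lost nearly all of its signal with amanitin and another that did not. Pramel6, Pramel7, Pramel4, Pramel5, Pramel18, Pramel3 and Pramel42, read from 9 probe sets, were lower at least 8-fold in both kinds of embryo. A set of 12 probe sets for Pramel12, Pramel13, Pramel25, Pramel27, Pramel29, Pramel32, Pramel34 and genes annotated with Oog1 and Oog2 was modestly higher on the deposited scale, by 0.60 to 1.29 in BCB and 0.48 to 1.31 in BBB embryos, but all 12 were lower when scaled to the poly-A controls. No Prame-like probe set passed the test between BCB and BBB embryos.

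In BCB embryos all 22 tested members were called, 12 higher and 10 lower, where 67.9% of all probe sets tested were called, 37.6% higher and 30.3% lower. In BBB embryos all 22 were called again, 12 higher and 10 lower, where the shares over all probe sets were 66.2%, 34.3% and 31.9%. The 12 and the 10 were the same probe sets in both kinds. Calls in either direction were therefore common, but falls of at least 8-fold were not: 9 of the 22 members fell that far in each kind, against 3.78% of all probe sets in BCB and 3.87% in BBB embryos. The median log2 difference of the 22 was 0.67 in BCB and 0.56 in BBB embryos, against 0.16 and 0.09 over all probe sets. The members' median also lay higher under median centring and scaling to the hybridization controls. It lay lower under quantile normalization, at 0.057 and 0.055 against 0.21 and 0.20. Under poly-A scaling it was lower too, at −1.32 and −1.38 against −1.11 and −1.15. With 12 members higher and 10 lower, this median does not describe the family as a whole. In BCB embryos the treated arrays all lay above the untreated arrays for 12 members and all below for 9, against 33.0% and 27.8% of all probe sets. In BBB embryos they all lay above for 12 and all below for 10, against 30.9% and 29.1%. In pooled embryo RNA, fewer embryos or cells with a transcript and less transcript per cell cannot be told apart.

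**Figure D1:**
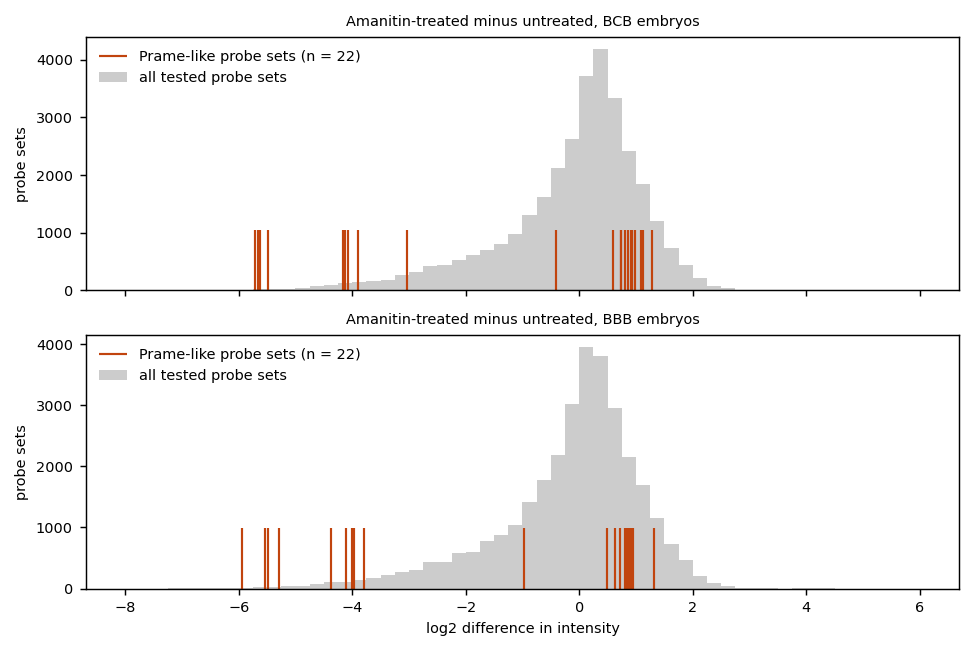
Histogram of the log2 difference, amanitin minus untreated, over all 31953 probe sets tested (grey bars, number of probe sets per bin), with the 22 tested Prame-like probe sets as red lines, for BCB embryos (top) and BBB embryos (bottom). In each kind 12 lines lie above 0 on the deposited scale, with a largest difference of 1.29 in BCB and 1.31 in BBB embryos, and 9 lie in the lower tail below −3. Under poly-A scaling the 12 lie below 0.

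The letters upstream of the gene starts were set beside this split. RefSeq (GRCm38.p6) held 43 promoter windows of the PRAME family, and the 250 bases before each start were read, of which the last 150 are shown for 4 genes whose probe sets were higher and 4 whose probe sets fell. They are shown because the first 4 share a run of letters, and because Pramel6, Pramel7, Pramel4 and Pramel5 carried the large falls. Each runs 5′ to 3′ on the gene's own strand and ends 1 base before the annotated start. Capitals mark the shared run, or in Pramel6 the closest match to it.
Pramel25, chr4:143789184-143789333, plus strand: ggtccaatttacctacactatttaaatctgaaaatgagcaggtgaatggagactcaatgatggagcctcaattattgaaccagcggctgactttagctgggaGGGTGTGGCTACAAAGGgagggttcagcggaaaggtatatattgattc
Pramel26, chr4:143816094-143816243, minus strand: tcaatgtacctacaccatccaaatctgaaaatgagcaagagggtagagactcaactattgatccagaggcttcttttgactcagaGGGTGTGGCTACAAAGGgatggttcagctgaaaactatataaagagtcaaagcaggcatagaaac
Pramel27, chr4:143846347-143846496, plus strand: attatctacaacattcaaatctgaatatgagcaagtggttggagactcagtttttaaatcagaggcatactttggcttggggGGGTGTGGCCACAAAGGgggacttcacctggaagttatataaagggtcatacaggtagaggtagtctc
Pramel32, chr4:88634187-88634336, minus strand: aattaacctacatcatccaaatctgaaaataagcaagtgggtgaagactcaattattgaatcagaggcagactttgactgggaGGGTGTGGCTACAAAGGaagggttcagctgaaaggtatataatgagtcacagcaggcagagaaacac
Pramel6, chr2:87506415-87506564, plus strand: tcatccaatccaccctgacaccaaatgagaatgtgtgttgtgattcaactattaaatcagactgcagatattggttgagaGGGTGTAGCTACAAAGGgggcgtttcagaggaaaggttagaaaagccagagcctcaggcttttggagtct
Pramel7, chr2:87492419-87492568, minus strand: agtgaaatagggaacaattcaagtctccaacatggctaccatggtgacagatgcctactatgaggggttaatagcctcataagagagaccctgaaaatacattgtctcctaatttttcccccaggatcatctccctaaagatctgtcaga
Pramel4, chr4:144058975-144059124, plus strand: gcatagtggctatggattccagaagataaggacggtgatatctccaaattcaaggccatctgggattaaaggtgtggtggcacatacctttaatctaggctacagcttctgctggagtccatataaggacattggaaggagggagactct
Pramel5, chr4:144280467-144280616, minus strand: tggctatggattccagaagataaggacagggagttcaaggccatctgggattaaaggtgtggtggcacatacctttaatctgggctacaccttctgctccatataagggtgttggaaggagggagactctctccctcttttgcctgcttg

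The shared run GGGTGTGGCNACAAAGG, of 17 letters with 1 free position, was found by a search for the longest such word in at least 9 of the 10 windows of genes whose probe sets were called higher, so its count there is fixed by that search. It stood in the windows of Pramel25, Pramel26, Pramel27, Pramel29, Pramel32, Oog1, Oog2, Oog3 and Oog4 and was missing from that of Pramel13. Searched on both strands, it stood in 0 of 6 windows of genes whose probe sets fell. It also stood in 0 of 27 family windows without a tested probe set. The 6 were those of Pramel3, Pramel4, Pramel5, Pramel6, Pramel7 and Prame. The fall of Prame was small, and its calls were lost under quantile normalization and median centring. Pramel5 was read only from a probe set shared with Pramel4. Among the 10, Oog2 and Pramel26 were read from 1 shared probe set, and Oog1 only from probe sets shared with Pramel51. The 10 genes were called higher on the deposited scale, and their probe sets were lower under poly-A scaling. Over all 32851 promoter windows the run stood in 10 (0.0304%), 1 of them outside the family. Pramel6 differed from the run by 1 letter, G7A, counted from 1 at its 5′ end. Pramel23, without a tested probe set, also differed by 1 letter, C12T. Pramel37, Pramel39, Pramel43, Pramel46, Pramel49 and Pramel50, also without a tested probe set, differed by 3. The run began 43 to 68 bases before the start in the 9 windows, and 70 bases before it in Pramel6.

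The motif TATAAA, searched on both strands and not overlapping the run in these windows, stood in 4 of the 10 windows of genes called higher, in 0 of the 6 of genes that fell, in 11 of the 27 without a tested probe set, in 15 of all 43 family windows (34.9%) and in 12.4% of all windows. The family windows are copies of one another and are not independent. Pramel25 and Pramel29 were identical at 88.8% of window positions and Pramel4 and Pramel5 at 88% after alignment, while Pramel6 and Pramel7 were identical at 33.2%. A match is a description of letters, not of a binding site. Windows of Pramel12, Pramel18, Pramel34, Pramel42, Pramel47 and Pramel51 were not analysed here.

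Pramel6 lies beside Pramel7 on chromosome 2 and was read from 2 probe sets. The first, 1456270_s_at, had an intensity of 20.8, 17, 20.6 and 11.9 in BCB embryos with amanitin, against 1739.8, 1392, 1448 and 1353 untreated, and of 20.5, 25.3, 10.8 and 0.9 in BBB embryos with amanitin, against 2103, 1978, 1381 and 1604 untreated. Every treated array was at or near the array's dim end and every untreated array was bright, with no overlap. The log2 difference was −5.48 ± 0.20 in BCB and −5.94 ± 0.20 in BBB embryos (SE, n = 4 against 4, adjusted p = 8.01e-17 and 2.14e-17 in limma). The second, 1456269_at, had 3, 13.9, 2.7 and 1.8 with amanitin against 343, 272, 299 and 277 untreated in BCB embryos, and 16.4, 9.3, 12.6 and 4 against 439, 428, 245 and 315 in BBB embryos. It moved the same way, by −3.91 and −3.80. On 3 of 4 BCB arrays and 2 of 4 BBB arrays with amanitin it lay under the 40th percentile, so its fall is large but its size is loosely set.

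Pramel7, the UHRF1-directed member, fell as steeply. Probe set 1439810_s_at had 50.5, 24.5, 50.1 and 51.9 in BCB embryos with amanitin, against 2776, 3145, 3068 and 2923 untreated, and 44.2, 36.7, 96 and 50.7 in BBB embryos with amanitin, against 2711, 2879, 2519 and 2771 untreated. No treated array came near the lowest untreated one, and the BBB array at 96 was the highest of the treated arrays. The difference was −5.66 ± 0.18 in BCB and −5.29 ± 0.18 in BBB embryos (SE, n = 4 against 4, adjusted p = 5.78e-18 and 1.93e-17 in limma). Its other probe set, 1439809_at, averaged 10.9 ± 7.77 with amanitin and 432 ± 86.7 untreated in BCB embryos, and 11.3 ± 8.67 and 407 ± 88.9 in BBB embryos (SD, n = 4 each). It fell, with log2 differences of −4.08 and −3.98, and 2 of 4 treated arrays of each kind lay under the 40th percentile.

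Pramel4 and Pramel5 lie in the cluster of family genes on chromosome 4, and their probe sets cannot separate them fully. Probe set 1434584_a_at, annotated to Pramel5, Pramel4 and Gm13102, had 31.3, 44.1, 18.1 and 32.2 in BCB embryos with amanitin, against 2394, 2529, 2579 and 2234 untreated, and 42.7, 29.5, 31.5 and 42.4 in BBB embryos with amanitin, against 2483, 2418, 2388 and 2390.3 untreated. Both treated groups lay far below both untreated groups, and the 4 untreated BBB arrays lay close together. The difference was −5.72 ± 0.14 in BCB and −5.54 ± 0.14 in BBB embryos (SE, n = 4 against 4, adjusted p = 8.46e-20 and 1.27e-19 in limma). Probe set 1438468_at, annotated to Pramel4 and Gm13102, averaged 35.9 ± 17 with amanitin and 868 ± 59.4 untreated in BCB embryos, and 25.8 ± 5.18 and 853 ± 97.5 in BBB embryos (SD, n = 4 each). It fell, with log2 differences of −4.17 and −4.38.

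Pramel18, Pramel42 and Pramel3 complete the steep falls. Pramel18, on chromosome 4 outside the cluster, had 14.5, 5.4, 20.9 and 12.3 in BCB embryos with amanitin, against 1436, 1389, 1273 and 1524 untreated, and 25.3, 9.1, 7.2 and 10.7 in BBB embryos with amanitin, against 1313, 1139, 1242 and 1319.7 untreated. Its treated arrays stood at the array's dim end and its untreated arrays were bright, and it fell, with log2 differences of −5.63 and −5.48. Pramel42, on chromosome 5 and read from a probe set annotated also to predicted genes, kept a clear signal with amanitin: 229, 289.6, 263 and 269 with amanitin against 4974, 5013, 4921 and 4556 untreated in BCB embryos, and 325, 277, 321 and 260.0 against 5244, 4853, 5489 and 5756 in BBB embryos. None of its treated arrays lay near the dim end, and its difference of −4.13 ± 0.091 and −4.11 ± 0.091 (SE, n = 4 against 4) had adjusted p of 3.00e-20 and 3.23e-20 in limma.

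Pramel3, on the X chromosome and read from a probe set annotated also to predicted genes, had the widest spread relative to its mean among untreated BBB arrays of all tested members. It had 53.8, 62.5, 60.3 and 96.6 in BCB embryos with amanitin, against 482, 695, 889.7 and 649 untreated, and 36, 29.3, 39.9 and 38 in BBB embryos with amanitin, against 1313, 961, 639.9 and 527 untreated. It fell, with log2 differences of −3.04 in BCB and −3.997 in BBB embryos. The treated BCB arrays all lay above the treated BBB arrays, and that contrast between the kinds is given below with its test.

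**Figure D2:**
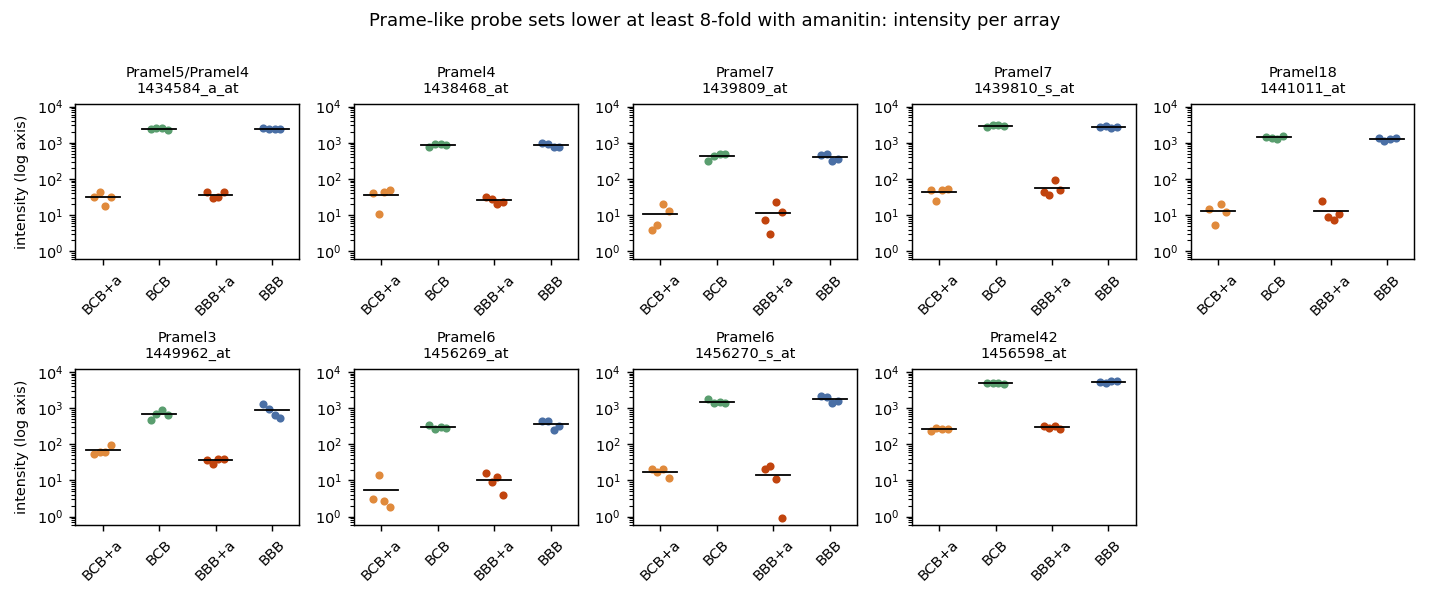
Intensity per array (points, log axis) and group mean (bar) of the 9 Prame-like probe sets that were lower at least 8-fold with amanitin, in BCB and BBB embryos with amanitin (BCB+a, BBB+a) and untreated (BCB, BBB), 4 arrays each. In each panel the treated points lie below the untreated ones; the highest treated intensity over all 9 panels is 325 and the lowest untreated one 245, and these belong to different probe sets.

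The probe sets that were higher with amanitin stayed bright in all groups. Pramel27, a gene of the chromosome 4 cluster, moved most, with 3985, 4602, 4171 and 3531 in BCB embryos with amanitin, against 1636, 1581, 1426 and 1997 untreated, and 4324, 4003, 4159 and 4065 in BBB embryos with amanitin, against 1474, 1492, 1866 and 1822 untreated. The treated arrays lay above every untreated array in each kind. The difference was 1.29 ± 0.099 in BCB and 1.31 ± 0.099 in BBB embryos (SE, n = 4 against 4, adjusted p = 4.65e-11 and 3.29e-11 in limma). Under the scaling to the poly-A controls it was lower, by −0.69 in BCB and −0.63 in BBB embryos, so its direction rests on the scale.

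The oogenesins Oog1 and Oog2 share probe sets with Pramel51 and Pramel26. Probe set 1427976_at, annotated to Pramel51, Oog1 and Gm2042 on chromosome 12, had 10563, 9774, 10685 and 11207 in BCB embryos with amanitin, against 5947, 5835, 5632 and 5688 untreated, and 10114, 11440.3, 9689 and 11540.0 in BBB embryos with amanitin, against 5474, 5095, 6431 and 6411 untreated. The groups did not overlap in either kind, and the differences were 0.87 and 0.87 on the deposited scale, against −1.12 and −1.08 under poly-A scaling. Its partner 1427977_x_at differed by 0.73 and 0.72, and was at −0.065 in BCB embryos under the hybridization controls. The probe set of Oog2 and Pramel26 averaged 5736 ± 199.98 with amanitin and 2994 ± 149 untreated in BCB embryos, and 5859 ± 268 and 3085 ± 307 in BBB embryos (SD, n = 4 each), a difference of 0.93 and 0.93.

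The other 8 probe sets called higher all differed by less than Pramel27. Pramel25 had 5995, 5458, 6056 and 5898 in BCB embryos with amanitin, against 3846, 3905, 3539 and 4113 untreated, and 5471, 5764, 5568 and 5707 in BBB embryos with amanitin, against 3394, 3343, 3989 and 3807 untreated. Its groups were apart in each kind, with differences of 0.60 and 0.63, but at −0.19 in BCB embryos under the hybridization controls and not called under quantile normalization. Pramel32, on chromosome 4 outside the cluster, had 1554, 1765, 1552 and 1569.9 with amanitin against 884, 939.6, 900.3 and 909 untreated in BCB embryos, and 1421, 1814, 1741 and 1804 against 815, 936, 1066 and 981 in BBB embryos. Its groups were apart, with differences of 0.81 and 0.83. Pramel13 had 992, 1134, 1218 and 1024 with amanitin against 536, 582, 534 and 511 untreated in BCB embryos, and 873, 1021, 1129 and 940.4 against 461, 476, 648 and 569 in BBB embryos. It was higher on every treated array of its kind, by 0.99 and 0.87.

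Pramel29 averaged 673 ± 71.1 with amanitin and 314 ± 92.1 untreated in BCB embryos, and 569 ± 70.4 and 286 ± 20.3 in BBB embryos (SD, n = 4 each), a difference of 1.10 and 0.95. Pramel34, on chromosome 5, was read from 1458392_at, which differed by 1.12 and 0.93, and from 1455830_s_at, shared with Pramel47, which differed by 0.91 and 0.90. These 3 probe sets did not overlap between treated and untreated arrays in either kind. All were lower under poly-A scaling, as were Pramel25, Pramel32 and Pramel13.

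Pramel12 was the gene whose own probe sets moved in opposite directions. Probe set 1434567_at had 889, 891, 843 and 883 in BCB embryos with amanitin, against 457, 463, 445 and 442 untreated, and 669.9, 764, 937 and 883 in BBB embryos with amanitin, against 408, 408, 531 and 484 untreated. Like 1434566_a_at, which differed by 0.74 and 0.48, it was higher with amanitin, by 0.93 and 0.80, and lower under poly-A scaling. The dim probe set 1439160_at went the other way, with 75.9, 83.9, 104 and 126 in BCB embryos with amanitin, against 126, 138, 127 and 141 untreated, and 67, 90.4, 104 and 89.9 in BBB embryos with amanitin, against 248, 148, 183 and 178 untreated. Its groups overlapped in BCB and not in BBB embryos. It fell, with a log2 difference of −0.41 in BCB embryos (adjusted p = 0.0276 in limma) and −0.98 in BBB embryos (adjusted p = 1.15e-05). The BCB call was lost without untreated BCB replicate 2 (adjusted p = 0.0577) or 4 (0.0618), and without amanitin-treated BCB replicate 1 (0.102) or 2 (0.0764), as well as under quantile normalization (0.687) and median centring (0.294).

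**Figure D3:**
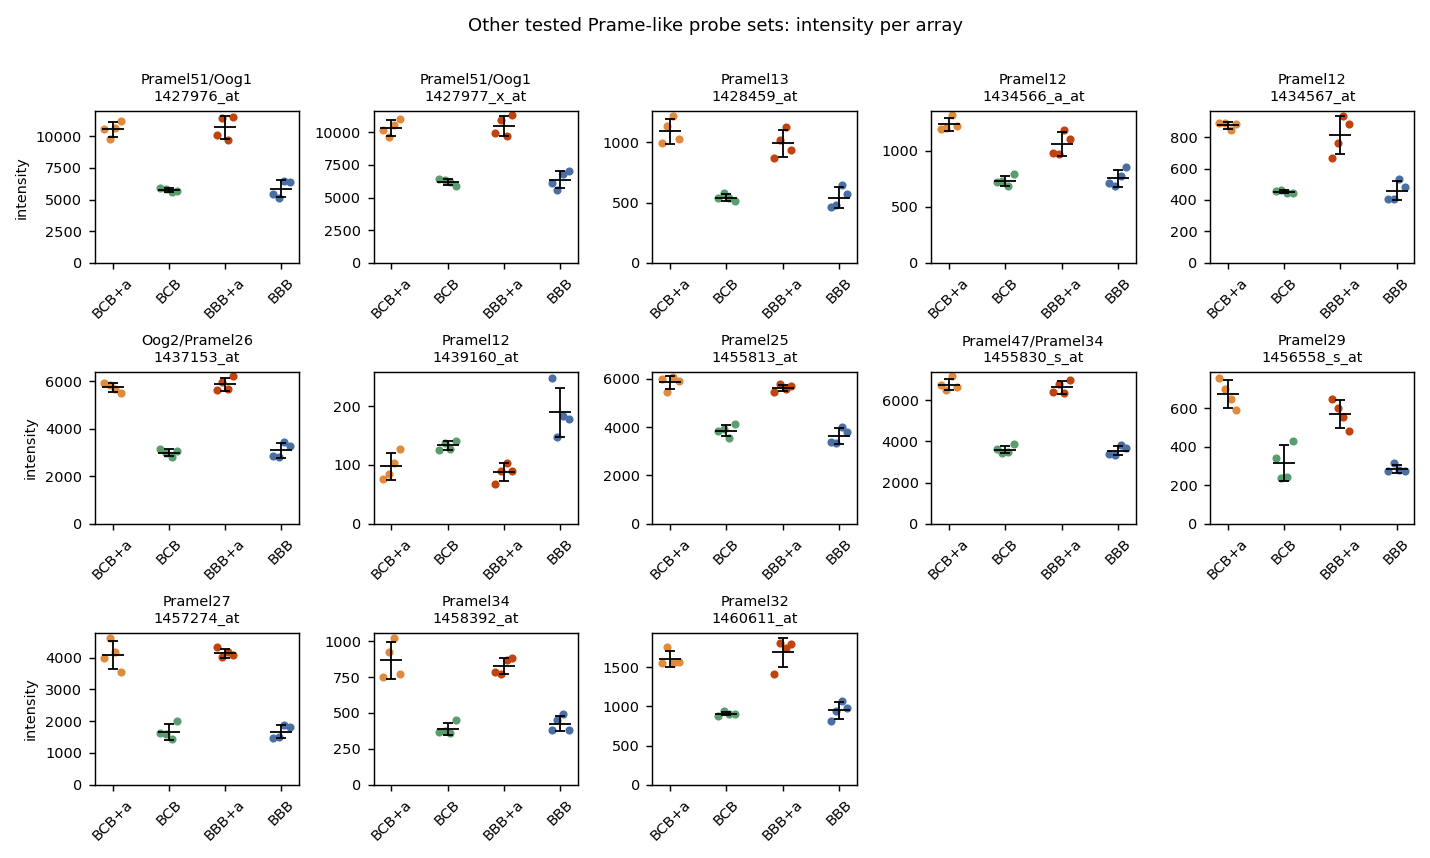
Intensity per array (points, linear axis from 0) with the group mean and SD (bar and whiskers, n = 4) of the 13 other tested Prame-like probe sets, in BCB and BBB embryos with amanitin (BCB+a, BBB+a) and untreated (BCB, BBB). In 12 panels the treated points lie above the untreated points of the same kind on the deposited scale, a direction that turns under poly-A scaling; in the panel of Pramel12 1439160_at they lie lower, with overlap in BCB embryos.

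Pramel1 was the member not tested. Its intensity was 5.7, 4.9, 9.1 and 5.2 in BCB embryos with amanitin, 3.3, 10.5, 2.2 and 1.9 in untreated BCB embryos, 10.4, 2.1, 6.6 and 8.6 in BBB embryos with amanitin and 4.1, 2.8, 4.2 and 14.7 in untreated BBB embryos. All but 1 untreated BBB array lay under their 40th percentile, so no change can be read from it.

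The sign of these rises depended on what the arrays were scaled to, while the large falls changed in size but not in sign or call. The 9 large falls were called lower in both kinds under quantile normalization, median centring and scaling to either set of added controls, with differences between −7.28 and −2.82 in BCB and between −7.26 and −3.50 in BBB embryos. Pramel3 fell less than 8-fold in BCB embryos under quantile normalization (−2.86) and median centring (−2.82). Of the 12 probe sets called higher on the deposited scale, 10 were called higher in each kind under quantile normalization and all 12 under median centring. Scaled to the hybridization controls, 1 of 12 was called higher in BCB and 7 in BBB embryos. Scaled to the poly-A controls, 12 of 12 were called lower in each kind, by −1.39 to −0.69 in BCB and −1.44 to −0.63 in BBB embryos, while the median of all probe sets moved to −1.11 and −1.15. Against that median, 7 of the 12 lay above it in BCB and 9 in BBB embryos. What the deposited scaling and the added controls contribute to the 12 rises was not tested.

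**Figure D4:**
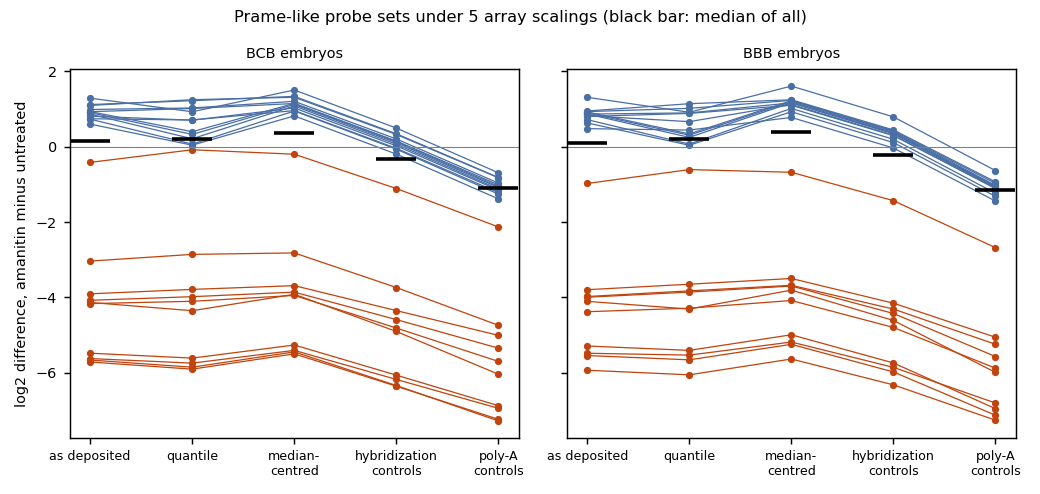
Log2 difference, amanitin minus untreated, of the 22 tested Prame-like probe sets (1 line each; blue where higher and red where lower on the deposited scale) under 5 array scalings, for BCB embryos (left) and BBB embryos (right), with the median of all probe sets as a black bar. The 9 large falls stay at or below −2.82 in BCB and −3.50 in BBB embryos, and the 12 blue lines pass below 0 under poly-A scaling, where they lie around the median of −1.11 in BCB and −1.15 in BBB embryos.

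Along chromosome 4 the 2 behaviours both occurred within 1 run of measured family genes. In RefSeq order the measured genes of the cluster were Pramel12, Oog4, Pramel25, Pramel26, Pramel27, Pramel4, Oog3, Oog2, Pramel29, Pramel5 and Pramel13, and those for Pramel4 and Pramel5 carried the steep falls. The nearest measured genes were Pramel27 and Oog3 for Pramel4, and Pramel29 and Pramel13 for Pramel5. These were higher on the deposited scale and lower under poly-A scaling. Family genes without a tested probe set lie between Pramel27 and Pramel4, and between Pramel5 and Pramel13. Pramel5 was read only from the probe set it shares with Pramel4, so its fall is not separate from that of Pramel4. Pramel26 and Oog2 were likewise read from 1 shared probe set. Oog3 differed by 0.58 and 0.40 in 1436720_s_at and by 0.76 and 0.65 in 1436721_x_at, and Oog4 by 0.75 and 0.70, in BCB and BBB embryos. Under quantile normalization Oog3 1436720_s_at was lower in BBB embryos, by −0.19. On chromosome 5 Pramel42 fell, while Pramel34 and Pramel47 on either side of it among the measured family genes were higher on the deposited scale. Pramel47 was read only from the probe set it shares with Pramel34, so its direction is not separate from that of Pramel34. On the X chromosome Pramel3 fell, and Prame, the founding gene of the family, fell, with log2 differences of −0.51 in BCB and −0.65 in BBB embryos, with adjusted p of 0.0294 and 0.00707 in limma. Its treated and untreated arrays overlapped in BCB embryos, and both calls were lost under quantile normalization (adjusted p = 0.245 in BCB and 0.188 in BBB embryos) and median centring (0.187 and 0.117). The BCB call was also lost without untreated BCB replicate 2 (0.0624) or 4 (0.0817), or without amanitin-treated BCB replicate 3 (0.147).

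**Figure D5:**
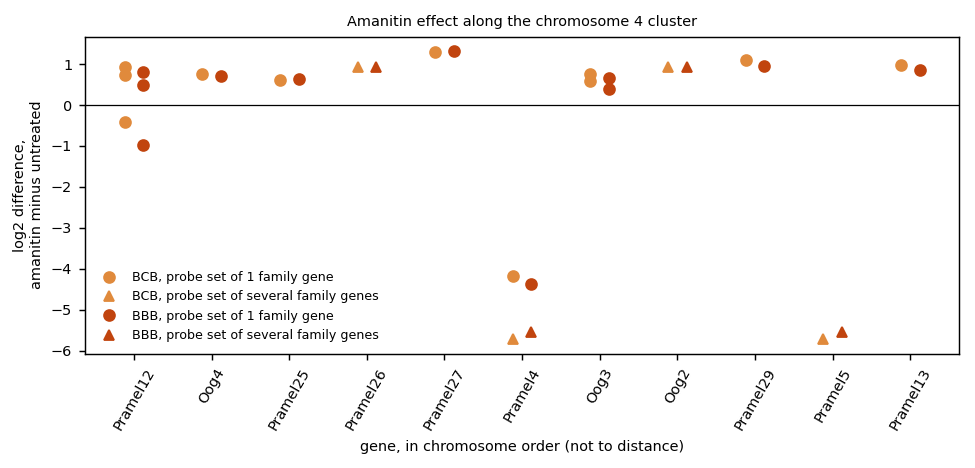
Log2 difference, amanitin minus untreated, on the deposited scale for the measured family genes of the chromosome 4 cluster, drawn in chromosome order without distance, for BCB embryos (light) and BBB embryos (dark); triangles are probe sets annotated to several family genes and appear at each of them. Pramel4 and Pramel5 lie at −4.17 or below. The other points lie between 0.40 and 1.31, and below 0 under poly-A scaling, apart from Pramel12 1439160_at at −0.41 and −0.98.

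The second question was whether a C3H rather than a B6 maternal pronucleus changed these transcripts. The 22 tested members, Pramel6 and Pramel7 among them, gave 0 calls between untreated BCB and untreated BBB embryos in limma, where 0.613% of all probe sets were called, and 1 member had an unadjusted p under 0.05. Pramel7 1439810_s_at averaged 2978 ± 163 in untreated BCB and 2719.7 ± 151 in untreated BBB embryos (SD, n = 4 each), and Pramel6 1456270_s_at 1483 ± 176 and 1767 ± 333. The log2 differences were 0.13 and −0.24, with 95% intervals from −0.24 to 0.50 and from −0.66 to 0.18. Over the 22 members the intervals, not adjusted for the number of probe sets, reached from −0.78 to 0.55. With 4 arrays a group, differences up to these sizes remain possible. The largest difference was in Pramel12 1439160_at, at −0.44 (95% interval −0.78 to −0.10, adjusted p = 0.437 in limma). Its untreated BCB arrays all lay below its untreated BBB arrays. Such separation held for 1 of the 22 members, and its share over all probe sets was not counted, so it is not read as a result. A C3H allele that binds a probe set differently and a different transcript level cannot be told apart in BCB embryos.

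With amanitin, 0 of 22 members were called between BCB and BBB embryos in limma, where 0.113% of all probe sets were called, and 2 had an unadjusted p under 0.05. These were Pramel3 and Pramel12 1434566_a_at. Pramel3 averaged 68.3 ± 19.2 in BCB and 35.8 ± 4.62 in BBB embryos with amanitin (SD, n = 4 each), a log2 difference of 0.68 ± 0.22 (SE, adjusted p = 0.248 in limma, and 0.171 to 1 over 30 alternatives), higher on all 4 BCB arrays. Pramel12 1434566_a_at averaged 1236 ± 55.9 in BCB and 1059 ± 103 in BBB embryos with amanitin, a difference of 0.22 ± 0.092 (SE, adjusted p = 0.374 in limma). Every BCB array was higher here too, and neither member passed the test. Such separation held for these 2 of the 22 members, and its share over all probe sets was not counted, so it too is not read as a result. The intervals of the 22 reached from −0.74 to 1.13.

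Whether the amanitin effect differed between the kinds was tested directly as an interaction, the effect in BCB minus the effect in BBB embryos. Of the 22 members 0 were called in limma, where 0.257% of all probe sets were called, and 2 had an unadjusted p under 0.05. Pramel3 had the largest interaction, 0.96 ± 0.31 (SE, adjusted p = 0.308 in limma), its fall being smaller in BCB embryos. The difference between BCB and BBB embryos in it was 0.68 with amanitin and −0.28 untreated. Over 29 alternatives the adjusted p of the interaction lay between 0.0481 and 0.873. The lowest came without untreated BBB arrays 3 and 4, at an interaction of 1.43. These were its 2 dimmest arrays of that group and were left out after their values were seen, so the larger interaction follows from that choice and supports no call. Without untreated BBB arrays 1 and 2, its 2 brightest, the interaction was 0.49 (adjusted p = 0.64), smaller by the same construction. For Pramel12 1439160_at the interaction was 0.56 (adjusted p = 0.475), and over all members the intervals reached from −0.90 to 1.60.

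The ligase that PRAME-family receptors join was read from a list of 18 genes for cullin 2 ligases, chosen with earlier results of these data known. Of 16 tested, 5 were higher and 9 lower with amanitin in BCB embryos, and 6 and 9 in BBB embryos, where 67.9% and 66.2% of all probe sets were called. Their median log2 difference was −0.96 and −0.79, against 0.16 and 0.09 over all probe sets. The scaffold Cul2 averaged 351 ± 31.5 with amanitin and 406 ± 9.01 untreated in BCB and 352 ± 37 with amanitin and 388 ± 19.6 untreated in BBB embryos (SD, n = 4 each), and was not called, with −0.20 and −0.14. The adaptors Elob, at −2.47 and −2.10, and Eloc, at −2.23 and −2.15, fell. Rbx1, the RING subunit, was called lower, with log2 differences of −1.02 and −0.81, but its probe set was dim in all groups. It averaged 12.5 ± 10.8 with amanitin and 39.4 ± 7.81 untreated in BCB embryos. In BBB embryos it averaged 15 ± 5.49 with amanitin and 37.8 ± 5.99 untreated (SD, n = 4 each). With amanitin these means lay near the array's dim end, so the size of the Rbx1 fall is loosely set. Among other receptors of this ligase Vhl fell, with log2 differences of −4.51 and −3.98 and Zyg11b at −3.72 and −3.73. Klhdc3 and Fem1b, which recognise protein ends, were higher, Klhdc3 by 1.08 and 1.02 and Fem1b by 0.71 and 0.86. Scaled to the poly-A controls, 0 of the 16 were called higher and all 16 lower in both kinds. The median of all probe sets was then −1.11 in BCB and −1.15 in BBB embryos, so these counts are not particular to the list.

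The DNA methylation genes around UHRF1, the Pramel7 substrate, were called in both directions. Of 11 tested, 5 were higher and 3 lower with amanitin in BCB embryos, and 6 and 4 in BBB embryos, where 67.9% and 66.2% of all probe sets were called. Their median log2 difference was 0.16 and 0.24, against 0.16 and 0.09 over all probe sets. Uhrf1 averaged 718 ± 46.1 with amanitin and 466 ± 73.4 untreated in BCB and 876 ± 157 with amanitin and 393 ± 51.3 untreated in BBB embryos (SD, n = 4 each), and was higher by 0.62 and 1.11. Dnmt1, the maintenance methyltransferase, was higher by 0.53 and 0.33, Dnmt3l, a cofactor of the oocyte's methyltransferases, by 2.01 and 1.88, and Tet3, the oocyte's methylcytosine dioxygenase, by 1.72 and 1.90. Uhrf2, the paralogue of Uhrf1, fell, with log2 differences of −2.58 and −2.06, Dppa3, a maternal protector of methylation, at −1.49 and −1.37, and Tet1 at −1.34 and −1.46. Under poly-A scaling 0 of the 11 were called higher and 9 lower in each kind, where the median of all probe sets was −1.11 and −1.15.

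In the LIF and STAT3 list, 6 of 13 tested genes were higher and 5 lower with amanitin in BCB embryos, and 4 and 5 in BBB embryos, where 67.9% and 66.2% of all probe sets were called. Their median log2 difference was 0.13 and −0.081, against 0.16 and 0.09 over all probe sets. Stat3 averaged 409.6 ± 56.4 with amanitin and 370.4 ± 31 untreated in BCB and 371 ± 54.7 with amanitin and 391 ± 16.3 untreated in BBB embryos (SD, n = 4 each), and was not called. The STAT3 target and feedback inhibitor Socs3 fell, with log2 differences of −5.35 and −5.31, the factor Klf5 at −3.9996 and −4.28 and Klf4 at −1.12 and −1.15. The kinases Jak1, by 1.55 and 1.68, and Jak2, by 0.92 and 0.89, and the receptor subunit Il6st, by 1.23 and 1.31, were higher. Under poly-A scaling 0 of the 13 were called higher, and 11 in BCB and 12 in BBB embryos were called lower. The median of all probe sets was then −1.11 and −1.15. No gene of the 3 lists was called between the kinds or in the interaction.

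Markers of other cells and stages were read beside both groups of members. Over all probe sets tested, 37.6% were called higher and 30.3% lower with amanitin in BCB embryos, and 34.3% and 31.9% in BBB embryos. These shares are for the deposited scale. Under poly-A scaling the median of all probe sets was −1.11 in BCB and −1.15 in BBB embryos. The 5 tested two-cell markers fell with the 9 steep members, with a median of −4.15 in BCB and −4.35 in BBB embryos. Of the 9 oocyte markers, 7 were called higher in each kind, as the 12 higher members were, and 2 were not called. Their median was 0.97 and 0.94, and under poly-A scaling 7 were called lower. Zp2 was at 1.71 and 2.01 and Nlrp5 at 1.28 and 1.43. Cumulus and granulosa markers, 11 of 12 with their own probe set, summed to an intensity of 756 to 895 in BCB with amanitin, 2839 to 3349 in untreated BCB, 749 to 949 in BBB with amanitin and 2486 to 3083 in untreated BBB embryos. Among them Amhr2 fell, with log2 differences of −5.01 and −4.84, while Amh lay under the 40th percentile on every array. Of the 8 tested, 3 were higher and 2 lower in BCB, and 5 and 1 in BBB embryos, while under poly-A scaling 0 were higher and 5 lower in each kind. Sperm markers, 7 in all, summed to 92.2 to 134 in BCB with amanitin, 59.2 to 74.7 in untreated BCB, 86.5 to 117 in BBB with amanitin and 48.2 to 108 in untreated BBB embryos, with Smcp and Tnp2 under the 40th percentile on every array. Of the 5 tested, 2 were higher in BCB and 1 in BBB embryos, and 0 lower. Under poly-A scaling 0 were higher, and 2 in BCB and 3 in BBB embryos were lower. What these cells contribute to the members was not tested.

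The genes whose intensity followed Pramel6 and Pramel7 most closely over the 16 arrays were named by Pearson's r, a description that mainly reflects the shared split by treatment, since 3310 and 3238 of 15273 genes had an r above 0.9. Pramel6 and Pramel7 correlated with each other at 0.985. The 5 genes closest to Pramel6 were Abt1 (0.997), Mybbp1a (0.997), Kif18b (0.997), Tbcb (0.997) and Gabarapl2 (0.997). Those closest to Pramel7 were Cd24a (0.998), Rtn4 (0.998), Arid4a (0.997), Pgd (0.997) and Trim25 (0.997). All 10 were lower with amanitin in both kinds, by −5.53 to −3.08 in BCB and −4.93 to −3.10 in BBB embryos.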

How the data were processed

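Gene expression of two-cell mouse embryos was read on 16 one-colour arrays. Per the labels' protocols, a Picopure kit gave the total RNA and an ENZO kit the biotin label. As deposited, the values are intensities on a linear scale with 1 decimal, already scaled by the authors in a way not given in the sources used here. Samples were grouped by their labels, and each sample column was used.

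Probe sets were named from the platform annotation, and 64 control probe sets were left out. Intensities were taken as log2(value + 16) without further scaling. Of 45037 probe sets, 31953 passed the filter at the 40th percentile on at least 4 arrays. One linear model of all 16 arrays, with 4 group means, was fitted with lmFit and eBayes (intensity trend on) of limma 3.58.1 in R 4.3.3. P-values were adjusted by Benjamini-Hochberg over every tested probe set. Contrasts were amanitin against untreated in each kind, BCB against BBB untreated and with amanitin, and the interaction. The fit was tested on simulated data. Promoter windows from RefSeq (GRCm38.p6) were aligned in pairs with Biopython 1.88, and gene order came from RefSeq.

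Every Pramel probe set is named, together with Prame, Oog3 and Oog4. Of each gene list up to 3 called members per direction may be named, those with the smallest adjusted p, and Cul2, Elob, Eloc, Rbx1, Uhrf1, Dnmt1 and Stat3 in every case. For Pramel6 and Pramel7 the 5 genes with the highest Pearson's r are named, without clone names and predicted genes. The members and lists were chosen with earlier results of these data known.

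Alternatives were pseudocounts of 1 and 64, no filter and a 60th percentile filter, 4 other array scalings, only the groups compared, a replicate block, no trend, array weights and leaving out each array. Leaving out untreated BBB arrays 1 and 2, or 3 and 4, was added after seeing the data. The precision is limited by 4 arrays a group, with a median half-width of the 95% interval of a difference of 0.23 on the log2 scale.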

Additional observations from a re-analysis of the deposited data

Results flagged for a closer look

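Among the members and their 4 relatives, 108 groups of 4 arrays were examined for an array apart from its group, and 9 such arrays were found; chance marks about 1 in 20 groups. Of these 9, 4 were replicate 2 of BCB embryos with amanitin. On that array Pramel4 1438468_at had 10.8 against 41.1 to 48.3 on the other 3, Pramel7 1439810_s_at had 24.5 against 50.1 to 51.9, Pramel6 1456269_at had 13.9 against 1.8 to 3, and Pramel32 had 1764.5 against 1552 to 1569.9. In the same group, replicate 3 had 842.7 for Pramel12 1434567_at against 883 to 891.

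In BBB embryos with amanitin, replicate 1 had 1420.9 for Pramel32 against 1741 to 1814, and replicate 2 had 4558.5 for Oog3 1436720_s_at against 5051 to 5139. In untreated BBB embryos, replicate 4 had 14.7 for Pramel1 against 2.8 to 4.2, and replicate 2 had 316 for Pramel29 against 273 to 279.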

How the results depend on the processing

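The 9 large falls kept their direction and their call in both kinds under every alternative run; their size depends on the pseudocount and the scaling. The strain contrasts kept 0 members called under every alternative, as did the interaction except without untreated BBB arrays 3 and 4, with 1 member called (Pramel3, whose 2 dimmest arrays of that group these were). Scaling changed the members called higher. Scaled to the hybridization controls, 11 of 22 members were called in BCB embryos, 1 higher, and 7 were called higher in BBB embryos. Scaled to the poly-A controls, 0 were higher and 22 lower in each kind, where the median of all probe sets was −1.11 in BCB and −1.15 in BBB embryos. Leaving out each array in turn gave 21 to 22 called members in BCB embryos, 12 higher and 9 to 10 lower, and in BBB embryos 22, 12 and 10. The cause of these changes was not tested.

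Scaled to the poly-A controls, the log2 differences (BCB, then BBB embryos) turned negative for Pramel51/Oog1 1427976_at (−1.12, −1.08), Pramel51/Oog1 1427977_x_at (−1.26, −1.23), Pramel13 1428459_at (−0.96, −1.05), Pramel12 1434566_a_at (−1.22, −1.44), Pramel12 1434567_at (−1.01, −1.10), Oog2/Pramel26 1437153_at (−1.05, −1.02), Pramel25 1455813_at (−1.39, −1.32), Pramel47/Pramel34 1455830_s_at (−1.08, −1.05), Pramel29 1456558_s_at (−0.82, −0.93), Pramel27 1457274_at (−0.69, −0.63), Pramel34 1458392_at (−0.82, −0.97), Pramel32 1460611_at (−1.15, −1.11), Oog3 1436720_s_at (−1.41, −1.55), Oog3 1436721_x_at (−1.23, −1.30), Oog4 1456183_at (−1.19, −1.21). Under the hybridization controls they turned negative in BCB embryos for Pramel12 1434566_a_at (−0.042), Oog3 1436720_s_at (−0.22), Pramel51/Oog1 1427977_x_at (−0.065), Pramel25 1455813_at (−0.19), Oog3 1436721_x_at (−0.035), Oog4 1456183_at (−0.026), and in BBB embryos for Pramel12 1434566_a_at (−0.032), Oog3 1436720_s_at (−0.12). Under quantile normalization Oog3 1436720_s_at turned to −0.19 in BBB embryos.

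The replicate numbers did not pair the arrays, with correlations of same-numbered deviations of −0.087 to 0.11 and at most 1 of 4 arrays best with its own number. With the replicate block, 22 members were called in each kind, 12 higher and 10 lower, and 0 in the other contrasts. Array values near the dim end limit the size of the falls, and 4 arrays a group limit the strain contrasts.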

Other observations

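Untreated BBB arrays 1 and 2 differed from arrays 3 and 4 in the members, a split noticed in these data. For 10 of the 12 probe sets called higher with amanitin, arrays 1 and 2 both lay below arrays 3 and 4, for 0 both lay above, and 2 followed neither order. For 6 of the 10 probe sets called lower, arrays 1 and 2 both lay above arrays 3 and 4, for 1 both lay below, and 3 followed neither order. Over all probe sets called higher in BBB embryos, 39.98% had arrays 1 and 2 below and 8.14% above, and over all called lower 11.8% had them below and 38.1% above. The order is therefore not particular to the members. Without untreated BBB arrays 1 and 2 the 12 differences in BBB embryos ranged from 0.37 to 1.16, and without arrays 3 and 4 from 0.59 to 1.47. All 12 were called higher either way on the deposited scale.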
